A study of Bos taurus with 15 samples.

Results

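Lipid droplet and fatty acid genes were described in bovine oocytes that had been left fresh or vitrified, that is, cooled so fast in a concentrated cryoprotective agent that water solidifies as a glass without ice crystals. Members were chosen by gene symbol from a list of 10 names: PLIN2, PLIN3, FABP3, FABP5, SCD, ELOVL5, ACSL3, DGAT1, DGAT2 and CPT1A. Of these, 9 matched a symbol among the 24616 genes of the table, and SCD matched none. Enough counts for a test were present for 6 of the 9, which were PLIN2, FABP3, FABP5, ELOVL5, ACSL3 and DGAT2, among 8441 genes tested in all.

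The series asked how the coolant and the concentration of the cryoprotective agent bear on the oocyte's mRNA. There were 15 libraries, 3 each from fresh oocytes and from 4 vitrified groups: liquid helium or liquid nitrogen as the coolant, each combined with 5.6 M or 6.6 M cryoprotective agent. All groups, the fresh one included, were Bos taurus ovarian oocytes that the labels describe as matured in vitro (IVM) for 22 to 24 h at 38.5 °C and stripped of cumulus cells with hyaluronidase, whereas the series title calls them immature. RNA was amplified to cDNA from single cells, and neither the animals of origin nor separate cultures are named, so p-values here measure only library-to-library spread, part of which may be technical.

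Oocytes of cattle are rich in lipid droplets, stores of triglyceride and sterol ester inside a single layer of phospholipid and coat proteins. Fatty acids are carried by binding proteins, activated to acyl-CoA, lengthened and desaturated, then either esterified into the droplet or sent into mitochondria for oxidation. Lipid content is a long-standing concern in cryopreservation of cattle oocytes because lipids stiffen and change phase on cooling.

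Depth differed with the coolant. Helium libraries held 6346848 to 8569618 counts, fresh libraries 1601519 to 2822837 and nitrogen 5.6 M libraries 1790900 to 2333545. Nitrogen 6.6 M libraries ranged from 1987931 to 7392972, and library 3 was the only one outside the helium groups above 5000000. Oocyte identity was checked on 13 oocyte markers, all detected in every library, with a summed level of 5342 to 10316 CPM (counts scaled to equal library totals). Of 22 cumulus and granulosa cell markers, 20 matched and summed to 340 to 633 CPM, with the highest sum in helium 6.6 M library 2. FSHR, FOXL2 and NR5A1 were at 0 in all 15 libraries. Others were present in every group: STAR averaged 192, 167 and 172 CPM in fresh, helium and nitrogen libraries, and HAS2 120, 97.7 and 109. TIMP1 reached 130 CPM in helium, against at most 1.25 in fresh and 2.52 in nitrogen libraries. TNFAIP6 reached 30.8 CPM in helium, against at most 1.82 and 0.873. The 6 adipocyte markers summed to 0.436 to 6.69 CPM with ADIPOQ at 0 throughout, and 10 blood and immune cell markers summed to 1.42 to 18.5 CPM.

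Level per transcript length is given as FPKM (fragments scaled by transcript length and library total). By it, the 9 matched members spanned from among the most abundant transcripts of the oocyte to a mean of 0.389 FPKM. FABP3, which binds long-chain fatty acids in the cytosol, stood first at a mean of 854 ± 96.1 FPKM (SD over all 15 libraries), rank 123 among all genes of the table. FABP5, another fatty acid binding protein, followed at 232 ± 27.1 FPKM. ACSL3, which activates fatty acids to acyl-CoA at nascent droplets, had 107 ± 10.7 FPKM, PLIN2, a droplet coat protein, 80.4 ± 22.6, and ELOVL5, an elongase of polyunsaturated fatty acids, 43.1 ± 13.7. The libraries' ranges of FABP3 and FABP5 did not overlap, nor did those of FABP5 and ACSL3, whereas ACSL3 overlapped PLIN2 and PLIN2 overlapped ELOVL5. The last triglyceride-forming step is catalysed by the acyltransferases DGAT1 and DGAT2, and CPT1A commits fatty acids to mitochondrial oxidation. DGAT2 averaged 2.02 ± 0.905 FPKM, DGAT1 1.04 ± 0.739, CPT1A 0.756 ± 0.414 and PLIN3, a further droplet coat protein, 0.389 ± 0.394, and each overlapped the next in that order.

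**Figure D1:**
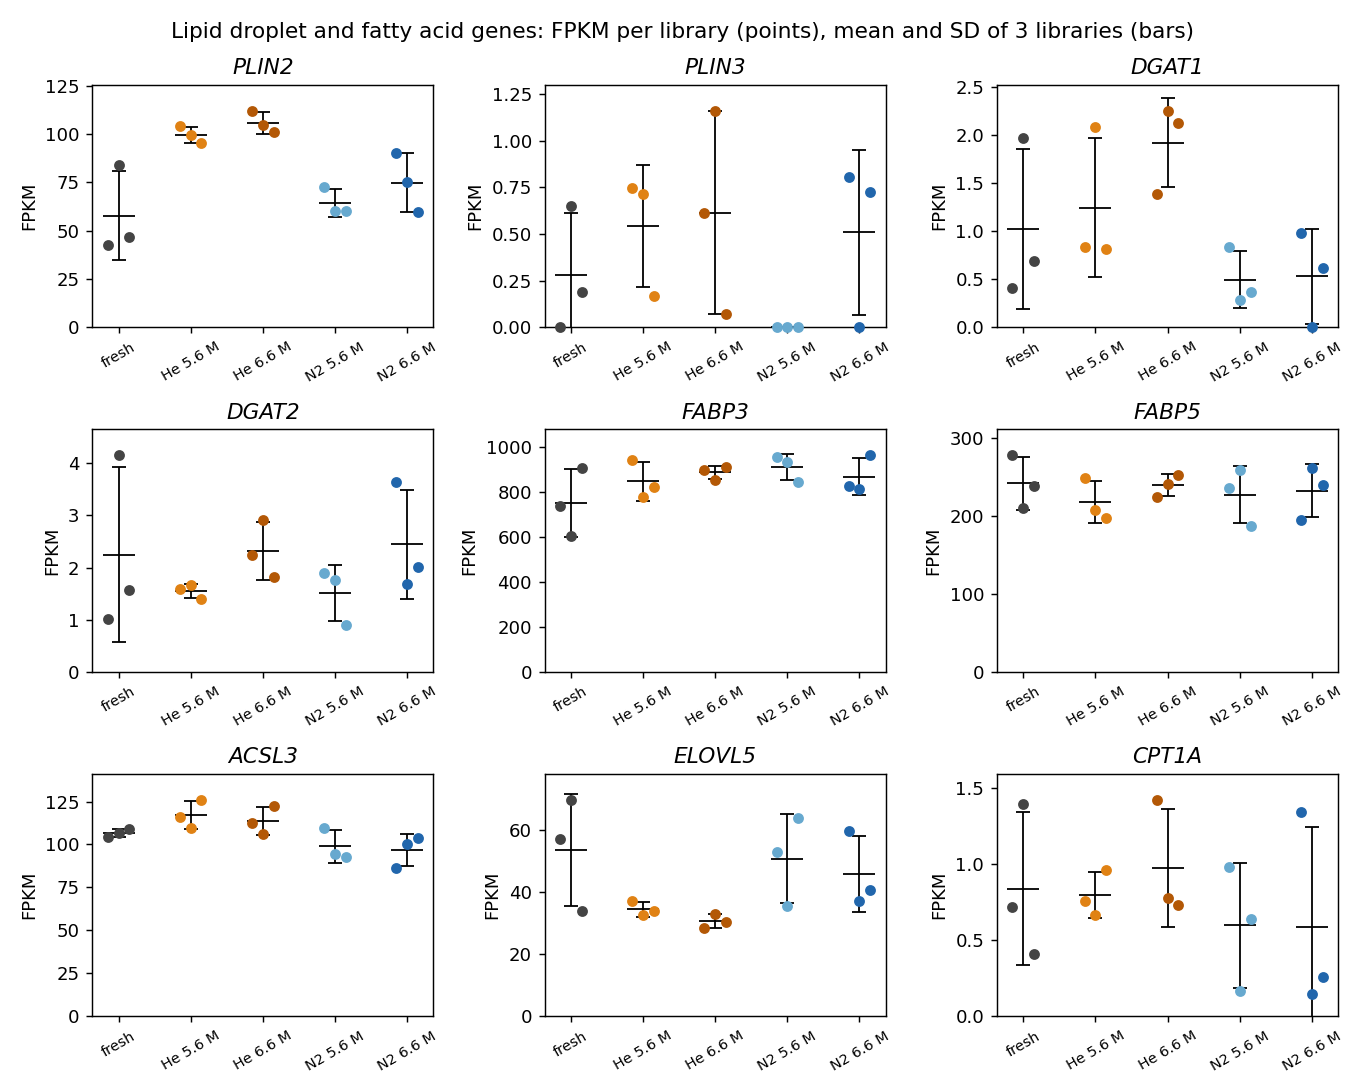
Level of each of the 9 matched genes in FPKM (vertical axes from 0, a separate scale per gene) by group on the horizontal axes, where He is liquid helium, N2 is liquid nitrogen and M the concentration of the cryoprotective agent. Each point is 1 library, and bars give the mean and SD of 3 libraries. The 6 helium libraries lie between 95.3 and 112 FPKM for PLIN2, above every fresh and nitrogen library, whereas FABP3 and FABP5 overlap among the groups.

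PLIN2 was the tested member whose helium libraries all lay above the other libraries. Those of ELOVL5 all lay below the others on the scale of the tests. Perilipin 2 coats cytoplasmic lipid droplets, shields the stored triglyceride from lipases and is the main perilipin of many cells that are not adipocytes. The gene (ENSBTAG00000005718, chromosome 8, 25129168 to 25142901, UMD3.1) measured 42.6, 84.0 and 46.5 FPKM in fresh libraries 1 to 3. Helium 5.6 M libraries 3, 4 and 5 had 104, 99.4 and 95.3 FPKM, and helium 6.6 M libraries 1 to 3 had 112, 105 and 101. Both helium groups lay above all fresh libraries, of which library 2 was the highest. Groups that do not overlap were found for 18.1% of all tested genes in helium 5.6 M against fresh and for 16.3% in helium 6.6 M against fresh, on the scale of the tests. In nitrogen the values were 72.7, 60.2 and 60.2 FPKM at 5.6 M and 90.0, 75.0 and 59.4 at 6.6 M, which overlapped fresh library 2 and stayed under every helium library.

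On the CPM scale used for the tests, which TMM scaling (a trimmed mean of log ratios) corrects for composition, PLIN2 averaged 178 ± 37.6 CPM in fresh oocytes (SD, n = 3), 305 ± 4.13 in helium 5.6 M, 318 ± 28.5 in helium 6.6 M, 209 ± 15.03 in nitrogen 5.6 M and 242 ± 47.0 in nitrogen 6.6 M. Against fresh, PLIN2 rose 1.78-fold in helium 6.6 M (log2 0.83, SE 0.19, adjusted p = 0.0444 in edgeR's quasi-likelihood test, adjusted over all genes tested after Benjamini and Hochberg). PLIN2 was the 1 member of 6 tested that edgeR called in helium 6.6 M against fresh, where 0.628% of all tested genes were called. DESeq2 called PLIN2 and ELOVL5 there, with adjusted p-values of 0.00102 and 0.0112, and limma-voom called PLIN2 alone (0.0397). Of the 8441 genes tested, DESeq2 called 279 and limma-voom 63. With the replicate number as a block in a fit of both groups, the PLIN2 difference was log2 0.85 with an adjusted p of 0.118 by edgeR, above the threshold of 0.05, so the call was lost. Leaving out 1 library at a time, the log2 difference stayed between 0.74 and 0.98, and the call held without fresh library 2 (adjusted p = 0.0085), nitrogen 5.6 M library 3, or nitrogen 6.6 M library 1 or 3, and was lost without any 1 of the other 11 libraries, up to an adjusted p of 0.209 (edgeR). Without helium 6.6 M library 2, the one with the highest cumulus marker sum, the difference was 0.88 on the log2 scale. The summed oocyte markers also differed among the groups. They were 8338 to 10316 CPM in the 6 helium libraries and 6197 to 8313 in the 6 nitrogen libraries. Fresh libraries 1 to 3 had 5342, 9946 and 6111 CPM, and library 2 also had the most PLIN2 of these. On the plain CPM scale of the markers, fresh library 2 had 263 CPM of PLIN2, and the helium libraries had 299 to 351. The part of the oocyte markers in the PLIN2 difference was not tested.

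In edgeR as fitted to all 15 libraries, PLIN2 did not pass the threshold in the remaining comparisons with fresh. Its log2 difference was 0.78 (SE 0.19) in helium 5.6 M, with an adjusted p of 0.0746 by edgeR. The nitrogen groups gave 0.23 (SE 0.19) at 5.6 M and 0.44 (SE 0.19) at 6.6 M, with adjusted p-values of 0.85 and 0.528 by edgeR. These comparisons share the 3 fresh libraries. With the 4 vitrified groups averaged, the log2 difference was 0.57 (SE 0.15, adjusted p = 0.0989 by edgeR). In TMM-scaled CPM 9 of 12 vitrified libraries lay above all fresh libraries, so the sets overlapped. DESeq2 called PLIN2 in helium 5.6 M (adjusted p = 0.00305) and over all vitrified groups (0.0126), and edgeR with no filter on low counts called it in helium 5.6 M (0.0365). Without fresh library 2, PLIN2 passed both in helium 5.6 M and over all vitrified groups, with adjusted p-values of 0.0148 and 0.0307 by edgeR.

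PLIN3, a relative of PLIN2 that moves from the cytosol to newly formed droplets, was near the limit of detection. Its counts were 0, 2 and 1 in fresh libraries, 12, 10 and 2 in helium 5.6 M, 8, 15 and 1 in helium 6.6 M, 0 in all 3 nitrogen 5.6 M libraries, and 3, 0 and 10 in nitrogen 6.6 M. The 5 libraries at 0 were all among the shallow ones, and 0 counts there allow a level of up to 1.15 to 1.87 CPM, taken as 3 counts of the total and covering counting error only. In the fit with no filter on low counts, PLIN3 differed by 2.67 on the log2 scale between helium and nitrogen (SE 1.15, adjusted p = 0.255 by edgeR) and by 2.69 between 6.6 M and 5.6 M (SE 1.15, adjusted p = 1.00 by edgeR), values that rest on 64 counts in all and on a nitrogen 5.6 M group at 0.

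The fatty acid binding proteins differed by less than their spread in these comparisons. FABP3 (ENSBTAG00000016819, chromosome 2, 122723225 to 122783830) had 740, 606 and 907 FPKM in fresh libraries and 780 to 965 FPKM in the 12 vitrified libraries, with a median of 878. Fresh library 2 was the lowest of the 15. The difference between vitrified and fresh was 0.16 on the log2 scale (SE 0.17, adjusted p = 0.762 by edgeR), from 603 ± 52.9 against 541 ± 198 TMM-scaled CPM. FABP5 (ENSBTAG00000047330, chromosome 14, 46644609 to 46649827) had 278, 210 and 238 FPKM in fresh libraries and 187 to 262 in vitrified ones, with a median of 238. Its log2 difference was -0.13 (SE 0.16, adjusted p = 0.802 by edgeR), and the vitrified libraries overlapped the fresh ones. The sign of both differences turned with the removal of 1 fresh library, FABP3 spanning -0.10 to 0.45 and FABP5 -0.35 to 0.04.

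ACSL3, which supplies acyl-CoA for droplet growth, was the steadiest member in fresh oocytes by FPKM, at 104, 107 and 109. In TMM-scaled CPM the same libraries were further apart, at 273, 217 and 319 (269 ± 51.1). The gene spans chromosome 2, 111797170 to 111887224 (ENSBTAG00000017258). A gene labelled RPS6, with 1399 counts in total against 18442 for ACSL3, overlaps it, so reads of either may be shared. Vitrified libraries held 86.1 to 126 FPKM with a median of 108, on both sides of the fresh values. Against fresh the log2 difference was -0.05 (SE 0.14, adjusted p = 0.935 by edgeR). Helium libraries had 106 to 126 FPKM and nitrogen libraries 86.1 to 110, a log2 difference of 0.15 (SE 0.13, adjusted p = 0.592 by edgeR).

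Of the acyltransferases, DGAT2 (ENSBTAG00000001154, chromosome 15, 55940757 to 55973229) was counted 4 to 50 times per library. It had 1.00, 4.15 and 1.57 FPKM in fresh libraries, and the vitrified libraries, at 0.898 to 3.64 FPKM, lay within that span except for 1 below it. Its log2 difference between vitrified and fresh was -0.19 (SE 0.35, adjusted p = 0.874 by edgeR). DGAT1 (chromosome 14, 1795351 to 1804562), which was too low for the test, had 1, 5 and 3 counts in fresh libraries, 8 to 24 in the 6 helium libraries and 0 to 7 in the 6 nitrogen libraries. Scaled for depth, the helium libraries had 1.20 to 3.19 TMM-scaled CPM of DGAT1 and overlapped the nitrogen libraries, which reached 1.53. In a fit with no filter on low counts, DGAT1 differed by 1.48 between helium and nitrogen on the log2 scale (SE 0.52, adjusted p = 0.117 by edgeR over 16294 genes).

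ELOVL5 was the member with the lower values in helium. The enzyme carries out an elongation step of polyunsaturated fatty acids. The gene (ENSBTAG00000003359, chromosome 23, 25155743 to 25228997) had 57.0, 69.8 and 34.0 FPKM in fresh libraries. Helium 5.6 M libraries had 37.1, 32.5 and 33.8 FPKM and helium 6.6 M libraries 28.5, 33.0 and 30.4. Nitrogen libraries had 52.9, 35.6 and 64.1 FPKM at 5.6 M and 59.7, 37.2 and 40.6 at 6.6 M. Helium values were thus the narrowest and lowest set, although in FPKM they overlapped fresh library 3 and nitrogen 5.6 M library 2.

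On the TMM-scaled CPM scale the 6 helium libraries (78.8 to 97.0 CPM of ELOVL5) lay below all 9 other libraries (107 to 185), in comparisons where 18.1% (helium 5.6 M against fresh), 16.3% (helium 6.6 M against fresh) and 3.36% (helium against nitrogen) of all tested genes had groups without overlap. Mean levels were 147 ± 30.5 CPM in fresh (SD, n = 3), 93.4 ± 5.26 in helium 5.6 M, 81.1 ± 1.99 in helium 6.6 M, 145 ± 38.9 in nitrogen 5.6 M and 131 ± 31.7 in nitrogen 6.6 M. No comparison of ELOVL5 passed the threshold in edgeR as fitted to all 15 libraries with the filter on low counts. Against fresh its log2 difference was -0.65 (SE 0.22) in helium 5.6 M and -0.85 (SE 0.22) in helium 6.6 M, with adjusted p-values of 0.172 and 0.0773 by edgeR. In helium 6.6 M it passed with DESeq2 (adjusted p = 0.0112), in edgeR with no filter (0.0338) and in edgeR without fresh library 2 (0.0455). In nitrogen it was -0.01 at 5.6 M and -0.17 at 6.6 M (SE 0.22 for both), with adjusted p-values of 0.994 and 0.903 by edgeR. Over all vitrified groups it was -0.42 (SE 0.17, adjusted p = 0.27 by edgeR), with 8 of 12 vitrified libraries below all fresh ones, so the sets overlapped.

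SCD, the stearoyl-CoA desaturase that places the first double bond in saturated fatty acids, has no row under that symbol. A row without a symbol (ENSBTAG00000045728, chromosome 26, 21141592 to 21148318), which the RefSeq gene table pairs with SCD, held 0 counts in all 15 libraries. That table is of assembly ARS-UCD2.0, another build than the UMD3.1 of the counts, so the identity of the row is not certain. For that row, a count of 0 allows 0.35 CPM in the deepest and 1.87 CPM in the shallowest library, and 0.0441 CPM over all 15 together.

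CPT1A (chromosome 29, 46822027 to 46862300), the outer mitochondrial membrane transferase, was also too low for the test. Fresh libraries had 3, 6 and 3 counts of CPT1A, helium libraries 13 to 26 and nitrogen libraries 1 to 7. Scaled for depth, these came to 1.26 to 3.02 TMM-scaled CPM in fresh, 1.68 to 3.71 in helium and 0.406 to 3.56 in nitrogen, which overlap. In the fit with no filter, the helium to nitrogen difference of CPT1A was 0.67 on the log2 scale (SE 0.47, adjusted p = 0.578 by edgeR).

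Set against fresh oocytes as a whole, vitrified oocytes showed no member past the threshold in edgeR. There, 0 of 6 tested members were called between all vitrified and fresh libraries, where 0.509% of all tested genes were called. PLIN2 and ELOVL5 had an unadjusted p under 0.05, as did 13.6% of all tested genes. DESeq2 called 1 member in that comparison, PLIN2, and limma-voom called 0, beside 191 and 48 of the 8441 genes tested. In helium 5.6 M, edgeR called 0 of 6 members against 0.474% of all tested genes. The same 2 members were under 0.05 unadjusted, beside 14.1% of all tested genes. DESeq2 called PLIN2 alone in this group and limma-voom called 0, beside 244 and 45 of the 8441 genes tested. The nitrogen groups had 0 members called by edgeR, DESeq2 and limma-voom alike, against 0.0118% of all tested genes called by edgeR at 5.6 M and 0.0474% at 6.6 M. Under 0.05 unadjusted were 0 and 1 members, beside 6.74% and 8.23% of all tested genes.

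**Figure D2:**
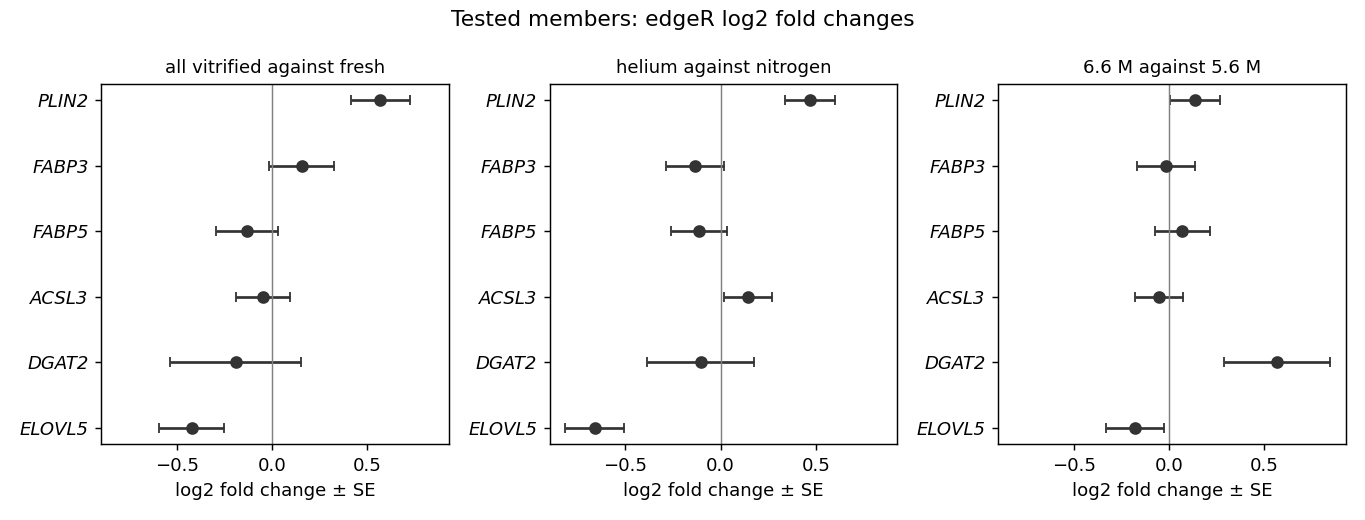
Log2 fold change with its SE (horizontal axes) for the 6 tested members in 3 comparisons from edgeR over 15 libraries: all vitrified against fresh, helium against nitrogen, and 6.6 M against 5.6 M. PLIN2 lies to the right of 0 and ELOVL5 to the left in the first 2 panels, at 0.47 and -0.66 between helium and nitrogen, and none of the values drawn passed the adjusted threshold.

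The coolants were compared directly, helium against nitrogen over both concentrations. PLIN2 was higher in 6 of 6 helium libraries than in all 6 nitrogen libraries (311 ± 19.5 against 225 ± 36.2 TMM-scaled CPM), and ELOVL5 was lower in 6 of 6 (87.2 ± 7.59 against 138 ± 32.7). Sets of values that do not overlap in this comparison were found for 3.36% of all tested genes. The log2 difference was 0.47 for PLIN2 (SE 0.13, adjusted p = 0.0921 by edgeR) and -0.66 for ELOVL5 (SE 0.15, adjusted p = 0.0517 by edgeR). In edgeR 0 of 6 members were thus called, against 0.663% of all tested genes. PLIN2 and ELOVL5 were under 0.05 unadjusted, as were 16% of all tested genes. DESeq2 called both, with adjusted p-values of 0.0148 and 0.00446, limma-voom called ELOVL5 with 0.0472, and edgeR with no filter called ELOVL5 with 0.00971. Of all genes tested, DESeq2 called 269 and limma-voom 83 of 8441, and edgeR with no filter 344 of 16294. Without fresh library 2, both passed in edgeR, with adjusted p-values of 0.0378 for PLIN2 and 0.0219 for ELOVL5, and ELOVL5 also passed without fresh library 1 or 3 or nitrogen 5.6 M library 2. The other 4 tested members differed by -0.13 (FABP3), -0.11 (FABP5), 0.15 (ACSL3) and -0.10 (DGAT2) on the log2 scale, with SEs of 0.15, 0.15, 0.13 and 0.28.

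Depth moved with the coolant. With depth class (above or below 5000000 counts) as a term in the fit of all groups, the helium to nitrogen difference was 0.87 for PLIN2 and -0.45 for ELOVL5 on the log2 scale, with adjusted p-values of 0.165 and 0.485 by edgeR. Only nitrogen 6.6 M held libraries of both classes, so the term rests on library 3 of that group against libraries 1 and 2. Nitrogen 6.6 M library 3, as deep as the helium libraries, had 192 TMM-scaled CPM of PLIN2, the lowest of the 6 nitrogen libraries, and 116 of ELOVL5, which lay among the other nitrogen libraries. Within the libraries above 5000000 counts, an alternative chosen after seeing the data with that library alone for nitrogen, the log2 difference was 0.67 for PLIN2 and -0.45 for ELOVL5, with adjusted p-values of 0.0758 and 0.195 by edgeR. This fit takes the lone library to vary as the helium libraries do.

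**Figure D3:**
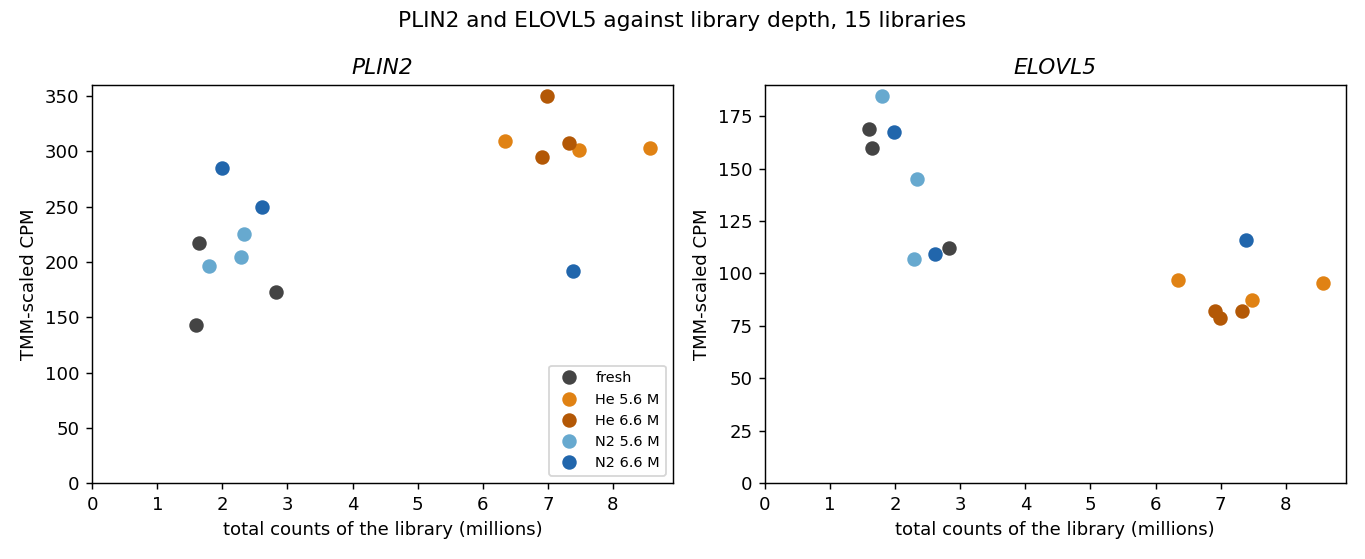
TMM-scaled CPM (vertical axes, from 0) of PLIN2 and ELOVL5 against the library's total counts (horizontal axes, in the unit given on the axis), 1 point per library, coloured by group, with He for liquid helium and N2 for liquid nitrogen. Nitrogen 6.6 M library 3, the blue point at 7392972 counts, has 192 CPM of PLIN2 beside 295 to 350 CPM in the 6 helium libraries of like depth, and 116 CPM of ELOVL5 beside 78.8 to 97.0.

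The ratio of PLIN2 to ELOVL5 within a library, which needs no scaling between libraries, was 2.80 to 3.92 in FPKM in the 6 helium libraries, 0.748 to 1.37 in the 3 fresh libraries and 0.939 to 2.02 in the 6 nitrogen libraries. The helium range lay above both others. This pair was chosen after its values were seen, so the ratio describes these libraries and supports neither difference. For FABP3 over FABP5 the ranges were 3.55 to 4.16, 2.67 to 3.80 and 3.12 to 4.53, which overlap.

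No member passed the threshold between the concentrations of the cryoprotective agent. Between 6.6 M and 5.6 M, over both coolants, edgeR called 0 of 6 members and 0% of all tested genes, with 0 members under 0.05 unadjusted (189 of all tested genes were), and DESeq2 and limma-voom called 0 members too. DGAT2 had the largest difference of the 6, 0.57 on the log2 scale (SE 0.28, unadjusted p = 0.0565, adjusted p = 1.00 by edgeR), with 5.88 ± 1.79 TMM-scaled CPM at 6.6 M and 3.84 ± 0.88 at 5.6 M. Of the 6 libraries at 6.6 M, 4 lay above all those at 5.6 M. PLIN2 differed by 0.14 (SE 0.13) and ELOVL5 by -0.18 (SE 0.15). Whether the concentration acted differently in each coolant was tested as an interaction, which was -0.15 for PLIN2 (SE 0.26) and -0.05 for ELOVL5 (SE 0.31). For it edgeR, DESeq2 and limma-voom called 0 members, edgeR called 0% of all tested genes, and 0 members and 177 of all tested genes were under 0.05 unadjusted.

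The surrounding pathway was described with 6 lists of 156 other lipid gene symbols, of which 138 matched the table and 74 were tested. Between all vitrified and fresh libraries edgeR called 0 of the 74, beside 0.509% of all tested genes, and DESeq2 and limma-voom called 0. Under 0.05 unadjusted were 7 of the 74, beside 13.6% of all tested genes. The median log2 difference was -0.09 for 9 genes of droplet coat, assembly and hydrolysis, -0.02 for 9 of fatty acid uptake, binding and activation, and 0.08 for 16 of synthesis, elongation and desaturation. For 8 genes of glycerolipid and sterol ester synthesis the median was -0.12, for 21 of fatty acid oxidation -0.02 and for 11 regulators -0.28, beside -0.03 over all tested genes. Among the 74, 33 had a difference above 0.

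**Figure D4:**
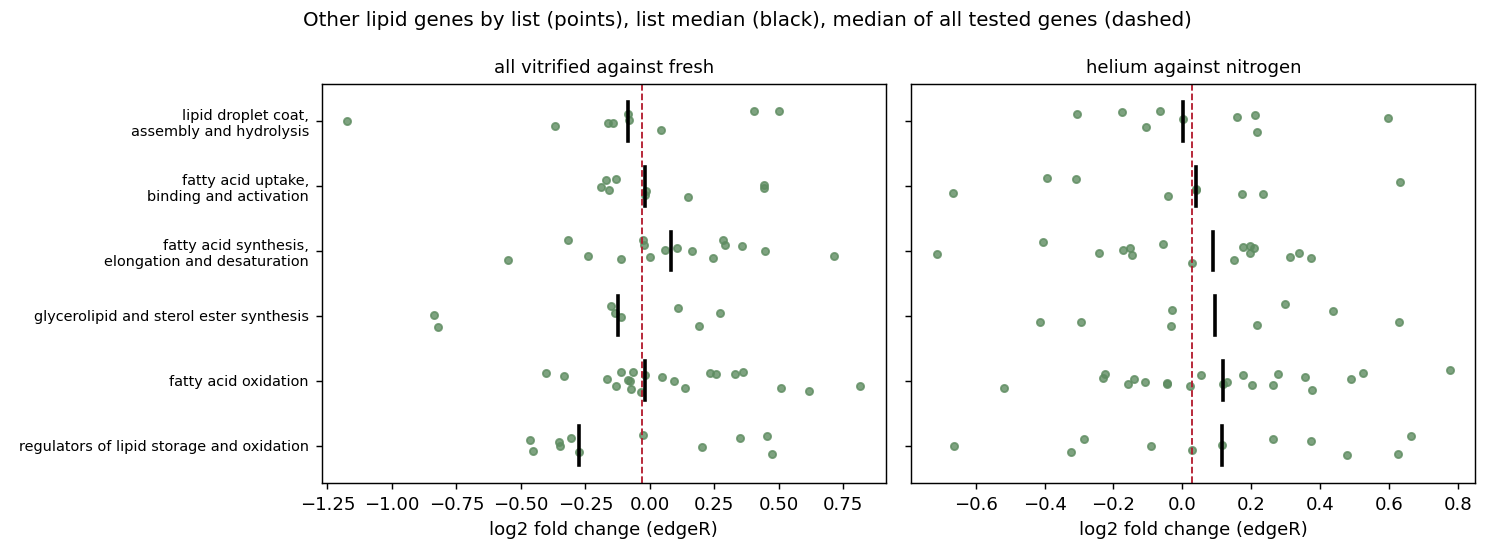
Log2 fold change from edgeR (horizontal axes) of 74 tested lipid genes outside the 10 names, by list, for all vitrified against fresh (left) and helium against nitrogen (right), with 1 point per gene, a black bar at each list's median and a dashed line at the median of all 8441 tested genes. List medians lie between -0.28 and 0.08 on the left and between 0.00 and 0.12 on the right, and no gene drawn passed the adjusted threshold.

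The 6 pathway genes with the smallest p between vitrified and fresh are given as values that did not pass. HACD4, a dehydratase of the elongation cycle, had 179 ± 29.4 TMM-scaled CPM in vitrified and 261 ± 66.3 in fresh libraries, a log2 difference of -0.55 (SE 0.17, adjusted p = 0.145 by edgeR). FITM2, a protein of droplet budding from the endoplasmic reticulum, had 3.91 ± 1.52 against 8.52 ± 5.31, or -1.17 (SE 0.38, adjusted p = 0.175 by edgeR), with fresh library 2 at 14.6. ETFB, a subunit of the flavoprotein that takes electrons from fatty acid oxidation, had 7.29 ± 1.71 against 4.03 ± 0.614 CPM, or 0.81 (SE 0.29, adjusted p = 0.218 by edgeR), and was higher in 12 of 12 vitrified libraries than in any fresh one. Groups without overlap were found for 2.03% of all tested genes in that comparison. HADH, the dehydrogenase of the third step of beta-oxidation, differed by -0.33, the acyltransferase AGPAT1 by -0.84 and PRKAA1, a catalytic subunit of the AMP-activated kinase, by -0.35, with adjusted p-values of 0.266, 0.285 and 0.305 by edgeR. The groups overlapped for all of these except ETFB.

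TMEM159, a partner of seipin in droplet assembly, had 589 FPKM, below FABP3 and above every other gene of the members and lists, and a log2 difference of 0.04 between vitrified and fresh. ETFA, the other subunit of the electron-transferring flavoprotein, had 297 FPKM (-0.08), ELOVL4, an elongase of very long chains, 214 (-0.32), and SOAT1, which forms cholesteryl esters, 112 (0.11). INSIG2, a sterol-sensing regulator, had 81.1 FPKM (-0.31) and the acyl-CoA binding protein family member ACBD3 had 38.8 (-0.16). None of the 6 was called between vitrified and fresh by edgeR, DESeq2 or limma-voom.

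Helium and nitrogen differed by 0.00 to 0.12 in the medians of the 6 lists on the log2 scale, beside 0.03 over all tested genes, and edgeR called 0 of the 74. Under 0.05 unadjusted were 11 of the 74, beside 16% of all tested genes. DESeq2 called 3 of the 74, beside 269 of the 8441 genes tested, and limma-voom called 0. The 3 were ELOVL4, HSD17B10 and MOGAT1, the last 2 named after their values were seen. ELOVL4 had 326 ± 52.4 TMM-scaled CPM in helium and 539 ± 192 in nitrogen, a log2 difference of -0.71 (SE 0.19, adjusted p = 0.0793 by edgeR), with nitrogen 6.6 M library 3 the highest of all 15 at 921. HSD17B10, a mitochondrial dehydrogenase, had 14.1 ± 2.55 against 8.49 ± 3.01 CPM (adjusted p = 0.0728 by edgeR), and MOGAT1, a monoacylglycerol acyltransferase, 66.9 ± 5.996 against 49.4 ± 8.16 (adjusted p = 0.132 by edgeR). In the comparisons of each group with fresh, edgeR called 0 of the 74 as well. In helium, 11 (5.6 M) and 12 (6.6 M) were under 0.05 unadjusted, beside 14.1% and 15.4% of all tested genes. In nitrogen, 3 (5.6 M) and 4 (6.6 M) were, beside 6.74% and 8.23% of all tested genes. DESeq2 called 1, HACD4, in helium 5.6 M, beside 244 of the 8441 genes tested, and 0 in the other 3, and limma-voom called 0 in all 4. Between concentrations and for the interaction, edgeR, DESeq2 and limma-voom each called 0 of the 74. Under 0.05 unadjusted in edgeR were 2 and 1, beside 2.24% and 2.1% of all tested genes.

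The genes whose log2 CPM followed the 2 most abundant members most closely over the 15 libraries were taken from 7221 genes with a symbol. For FABP3 these included EIF3E (Pearson r = 0.95) and TEX30 (0.93). For FABP5 they were SMNDC1 (0.92), DPH6 (0.90) and GLMN (0.90). The points share their libraries, depth and scaling, so the values are a description.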

How the data were processed

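RNA-seq of 15 bovine oocyte libraries was analysed from 1 table. Counts were deposited by the authors as whole numbers per gene and library, per the file headers, unscaled. FPKM values were deposited beside them, per the file headers. HISAT2 2.0.4, StringTie 1.3.0 and UMD3.1 were used, per the submitters' processing notes, with no role given; strand use and read filters were not stated in these sources. Totals ranged from 1601519 to 8569618 counts, which limits genes of few counts in the shallow libraries.

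Groups and replicate numbers came from the labels. Genes passing edgeR's filterByExpr (8441 of 24616) were TMM-scaled and fitted once for the 5 groups (edgeR 4.0.16, robust quasi-likelihood, R 4.3.3), with 8 contrasts and Benjamini-Hochberg adjustment at 0.05. The code was tested on simulated data. Alternatives were other scalings, DESeq2 1.42.0, limma-voom 3.58.1, filters, depth, replicate blocks and leaving out each library. CPM is TMM-scaled, except plain CPM for markers and limits of 0 counts. The likeness of genes was taken on log2(CPM + 1).

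The members and lists were chosen with earlier results of these data known. Beside the members, the naming rule took any pathway gene called, each list's best expressed gene, the 6 smallest p-values between vitrified and fresh where fewer passed, and the 3 genes most like each of the 2 most abundant members, of which 1 is not reported here. No library was a copy: chi-square over its degrees of freedom was 5.56 to 30.9 for the 15 library pairs within groups. Deviations from group means correlated at 0.162, 0.32 and 0.243 for libraries 1, 2 and 3 of helium 6.6 M and fresh, all over 0.1, so their numbers were taken to pair them; the labels do not say what a number marks. No other comparison with 3 shared numbers had all correlations over 0.1. No sequences were printed, as none of the sources used here held them.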

Additional observations from a re-analysis of the deposited data

Results flagged for a closer look

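PLIN2 in helium 6.6 M library 1 stood apart from the other 5 helium libraries at 349.8 TMM-scaled CPM, against 309.6 in the next highest and 295.4 in the lowest. The gap to the next library was 0.74 of the whole range of the 6, above Dixon's 95% critical value for 6 values. It was the 1 such case among 18 sets of libraries examined, and chance alone gives about 1 in 20. Without that library, PLIN2 in helium 6.6 M against fresh had a log2 difference of 0.76 with an adjusted p of 0.15 by edgeR's quasi-likelihood test. The gap was examined on TMM-scaled CPM only, with both concentrations pooled. In FPKM, where the library stood less apart, it had 112, against 105 in the next highest and 95.3 in the lowest helium library.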

How the results depend on the processing

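For the 28 single results on PLIN2, FABP3, FABP5, ELOVL5, ACSL3 and DGAT2, 668 values under other settings were computed: 612 kept direction and side of the threshold, 15 lost the call, 17 gained one and 24 turned sign. Of members, DESeq2 called 1 in all vitrified against fresh, 1 in helium 5.6 M, 2 in helium 6.6 M and 2 in helium against nitrogen; with no filter on low counts the last 3 were 1, 2 and 1, and limma-voom called 1 between coolants. In helium 6.6 M against fresh, 0 were called with the replicate block in all groups (PLIN2 adjusted p = 0.135, edgeR), with the replicate block in the 2 groups, with only the 2 groups, and with depth class as a term (PLIN2 log2 1.31, adjusted p = 0.296, edgeR). The block changed no other call. The depth term rests on nitrogen 6.6 M library 3, the only library that differed in depth class from others of its group. Leaving out 1 library gave 0 to 1 members in all vitrified and in helium 5.6 M, 0 to 2 in helium 6.6 M and 0 to 2 between coolants. Of pathway genes, DESeq2 called 1 in helium 5.6 M and 3 between coolants, and no filter gave 1 in helium 6.6 M and 5 between coolants. Depth class as a term gave 1, ELOVL4, between coolants. Among the libraries over 5000000 counts, with nitrogen 6.6 M library 3 alone for nitrogen, ELOVL4 differed by -1.53 on the log2 scale. With 1 library left out, pathway genes called were 0 to 2, 0 to 2, 0 to 3 and 0 to 2 in all vitrified, helium 5.6 M, helium 6.6 M and between coolants. The highest came without fresh library 2, and the cause was not tested.

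Signs turned for small differences. With depth class as a term DGAT2 was 0.031 between vitrified and fresh and 0.19 between coolants, and with the replicate block it was 0.033 between coolants. The block also gave 0.010 for FABP3 and 0.037 for ACSL3 between concentrations, and a fit of only the 2 groups gave 0.0015 for ELOVL5 in nitrogen 5.6 M. With 1 library left out, vitrified against fresh spanned -0.10 to 0.45 for FABP3, -0.35 to 0.042 for FABP5, -0.19 to 0.10 for ACSL3 and -0.41 to 0.30 for DGAT2. ELOVL5 in nitrogen 5.6 M spanned -0.17 to 0.21, DGAT2 between coolants -0.25 to 0.054, FABP3 between concentrations -0.058 to 0.017, and the interaction -0.30 to 0.00041 for PLIN2 and -0.21 to 0.18 for ELOVL5.

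Genes called among all tested moved as well. With 1 library left out they ranged from 5 to 243 in all vitrified against fresh (43 with all libraries), from 1 to 431 in helium 5.6 M (40), from 3 to 598 in helium 6.6 M (53) and from 15 to 234 between coolants (56). The highest counts came without fresh library 2; the lowest came without fresh library 1, helium 5.6 M library 3 or 5, helium 6.6 M library 2 or fresh library 1, and helium 5.6 M library 4. In the same order DESeq2 called 191, 244, 279 and 269, no filter 142, 160, 239 and 344, the replicate block in all groups 1, 1, 3 and 0, and depth class 1, 0, 0 and 13. Only the 2 groups gave 5 in helium 5.6 M and 2 in helium 6.6 M, and the block in 2 groups 17 in helium 6.6 M. In nitrogen 5.6 M and 6.6 M against fresh, DESeq2 called 32 and 69 (1 and 4 in edgeR). No filter moved the median log2 difference of all genes between coolants from 0.03 to 0.18. DGAT1, CPT1A and PLIN3 had too few counts for the filter.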

Other observations

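G0S2, an inhibitor of adipose triglyceride lipase and thus of droplet breakdown, was seen in helium libraries alone and was singled out after its values were seen. It had 55 counts in helium 6.6 M library 2, 4 in helium 6.6 M library 3, 3 and 2 in helium 5.6 M libraries 5 and 3, and 0 in the other 11 libraries. In TMM-scaled CPM, library 2 stood at 7.18 and the other helium libraries at 0 to 0.532. A count of 0 allows 0.406 CPM in nitrogen 6.6 M library 3 and 1.06 to 1.87 CPM in the shallower nitrogen and fresh libraries. Levels such as those of the other helium libraries could thus go uncounted in the shallower ones. The fit with no filter on low counts called G0S2 in helium 6.6 M against fresh (adjusted p = 0.0288 by edgeR) and in helium against nitrogen (0.0311), values that rest on 1 library. That library, helium 6.6 M library 2, had the highest sum of cumulus and granulosa cell markers of the 15, 633 CPM, and the part of that in the G0S2 counts was not tested.

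ELOVL4 and ELOVL5, both fatty acid elongases, parted in the one deep nitrogen library. Nitrogen 6.6 M library 3 had 921 TMM-scaled CPM of ELOVL4, against 399 to 520 in the other 5 nitrogen libraries, and 116 of ELOVL5, against 107 to 185.

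Fresh library 2 differed from the other 2 fresh libraries in several members. It had the highest PLIN2 (84.0 FPKM against 42.6 and 46.5), DGAT2 (4.15 against 1.00 and 1.57) and ELOVL5 (69.8 against 57.0 and 34.0) and the lowest FABP3 (606 against 740 and 907). Its TMM factor was 1.22, against 0.938 and 0.843. In TMM-scaled CPM, ELOVL5 was 169, 160 and 112 in fresh libraries 1 to 3, so library 1 was the highest on that scale.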
